A study of Mus musculus with 620 samples.

Results

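The genes described here are 7 that serve absorption in the mouse colon: Slc26a3, Slc9a3, Car1, Car4, Aqp8, Slc10a2 and Fabp2. They were taken by symbol from the 69 colon libraries among 620 libraries of a bulk poly(A) RNA-seq study of GLP-1 receptor agonism and ageing. The genes were chosen by readouts of these same libraries, with earlier results in view. Their colon values are therefore given as a description, with fitted differences, standard errors (SE) and whether the gene passed the threshold used over all genes. Because of that choice these calls are no independent test of the 7 genes, and nothing is supported with them. Each of the 7 was listed in the LT table of 24850 genes and in the ST and YA tables of 40840 genes, and each of the 7 passed the filter on low counts in all 3 cohorts.

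The cohorts carry the labels LT, ST and YA, which the sources used here do not spell out. LT colon came from 6 young and 9 aged controls and from 8 aged animals treated with exenatide, a peptide agonist of the GLP-1 receptor. ST colon came from 5 mice in each of 6 conditions. These were young controls, aged controls, aged exenatide-treated mice, aged mice on rapamycin (an inhibitor of mTOR), aged controls with a knockdown of the GLP-1 receptor in the hypothalamus, and aged mice with that knockdown given exenatide. YA colon came from 8 controls and 8 mice given exenatide. Strain, age in months, dose, length of treatment and what the controls received are not stated in the labels. The knockdown was aimed at the hypothalamus, which was not analysed here in ST, so the knockdown itself was not checked. In colon the receptor gene, Glp1r, was at 0.505 CPM (counts per 1 M counts) or less in every library. Each library came from a different mouse, so differences are judged against the spread between animals.

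As background, surface colonocytes take up salt and water. Slc26a3 encodes the apical chloride/bicarbonate exchanger DRA, whose loss in humans causes congenital chloride diarrhoea, and Slc9a3 encodes the apical sodium/proton exchanger NHE3. The pair work side by side to absorb sodium chloride. Carbonic anhydrases supply them with protons and bicarbonate: Car1 is the cytosolic enzyme and Car4 is anchored to the outer face of the membrane. Aqp8 is a water channel. Slc10a2 (ASBT) takes up bile acids from the lumen, chiefly in the ileum, and also works in the kidney and bile ducts. Fabp2 is the intestinal fatty acid binding protein, best known from the small intestine.

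Promoter windows from 250 bases before to 50 bases after the start of the gene were found for 6 of the 7 genes in RefSeq (build GRCm38.p6). They were searched on both strands for the letters CAAAGNNCA, typical of HNF4 factors, and TTTATG, typical of CDX factors. Both factor families are known regulators of intestinal epithelium. The first was present in 6.36% and the second in 11.9% of all 32851 promoters of this length. The 3 windows that hold a match are shown because 2 of them belong to genes called in the YA cohort below and the other to the one of the 7 that varied most closely with posterior Hox expression in ST and YA, though not in LT. Capitals mark the match, and the windows lie at chr12:31437969-31438268 (plus strand), chr8:5105238-5105537 (minus strand) and chr3:122894822-122895121 (plus strand).
Slc26a3: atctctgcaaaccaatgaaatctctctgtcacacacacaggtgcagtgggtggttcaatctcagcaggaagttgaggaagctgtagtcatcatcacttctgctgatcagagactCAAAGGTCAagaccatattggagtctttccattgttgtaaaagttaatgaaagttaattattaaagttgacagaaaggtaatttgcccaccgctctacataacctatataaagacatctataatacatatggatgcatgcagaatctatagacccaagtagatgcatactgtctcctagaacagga
Slc10a2: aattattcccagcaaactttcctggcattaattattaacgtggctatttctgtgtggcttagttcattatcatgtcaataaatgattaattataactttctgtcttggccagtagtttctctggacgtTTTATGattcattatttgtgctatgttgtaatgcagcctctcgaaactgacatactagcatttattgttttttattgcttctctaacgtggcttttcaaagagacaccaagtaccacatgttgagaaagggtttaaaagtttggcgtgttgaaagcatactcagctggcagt
Fabp2: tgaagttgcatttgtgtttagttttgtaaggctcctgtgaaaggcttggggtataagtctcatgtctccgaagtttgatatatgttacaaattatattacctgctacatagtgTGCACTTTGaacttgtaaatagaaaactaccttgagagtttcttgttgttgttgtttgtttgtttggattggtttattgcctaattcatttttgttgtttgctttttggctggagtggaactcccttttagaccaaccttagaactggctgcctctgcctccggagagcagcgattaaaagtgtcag

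The matches lie 136 (Slc26a3), 122 (Slc10a2) and 137 (Fabp2) bases upstream of the start, the first and last of the HNF4 type and the middle one of the CDX type. No match lay in the windows of Car4, Aqp8 and Slc9a3, which says only that these letters are not in those windows.

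Total counts per colon library ran from 22.7 to 31.8 M. The libraries held muscle as well as epithelial transcripts: summed CPM of 6 smooth muscle markers ran from 949 to 16958, beside 5729 to 23245 for 6 epithelial markers. In such bulk samples fewer absorptive cells and less RNA per cell cannot be told apart. The 2 LT young control libraries of animals A52 and A53 went against their label: they held 6472 and 7782 CPM of the small intestine gene Sis, and none of the 5 posterior Hox genes tested that mark the distal colon. Aqp8 was at 0 and 0.0459 CPM in them and Car1 at 0.0865 and 0.0459, whereas Fabp2 was at 6679 and 3790. The bile acid binding gene Fabp6, of the ileum, was at 642 CPM in A52 and at 0 in A53. Another young control, A54, had Sis at 25.8 CPM and Hoxb13 at 0.0672 CPM. In the other 3 young controls Sis was at 0.398 to 0.562 CPM. A52 was sequenced in batch 2 and A53 and A54 in batch 3, where they were the only young controls. LT results below are given with and without A52 and A53, and with A54 left out too where that changes a call. Another LT library, of the exenatide-treated animal B30, carries the tissue tag Gastrointestinal_tract but is titled colon, and held 0.739 CPM of Sis and 1540.1 CPM of Car1 and was kept.

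**Figure D1:**
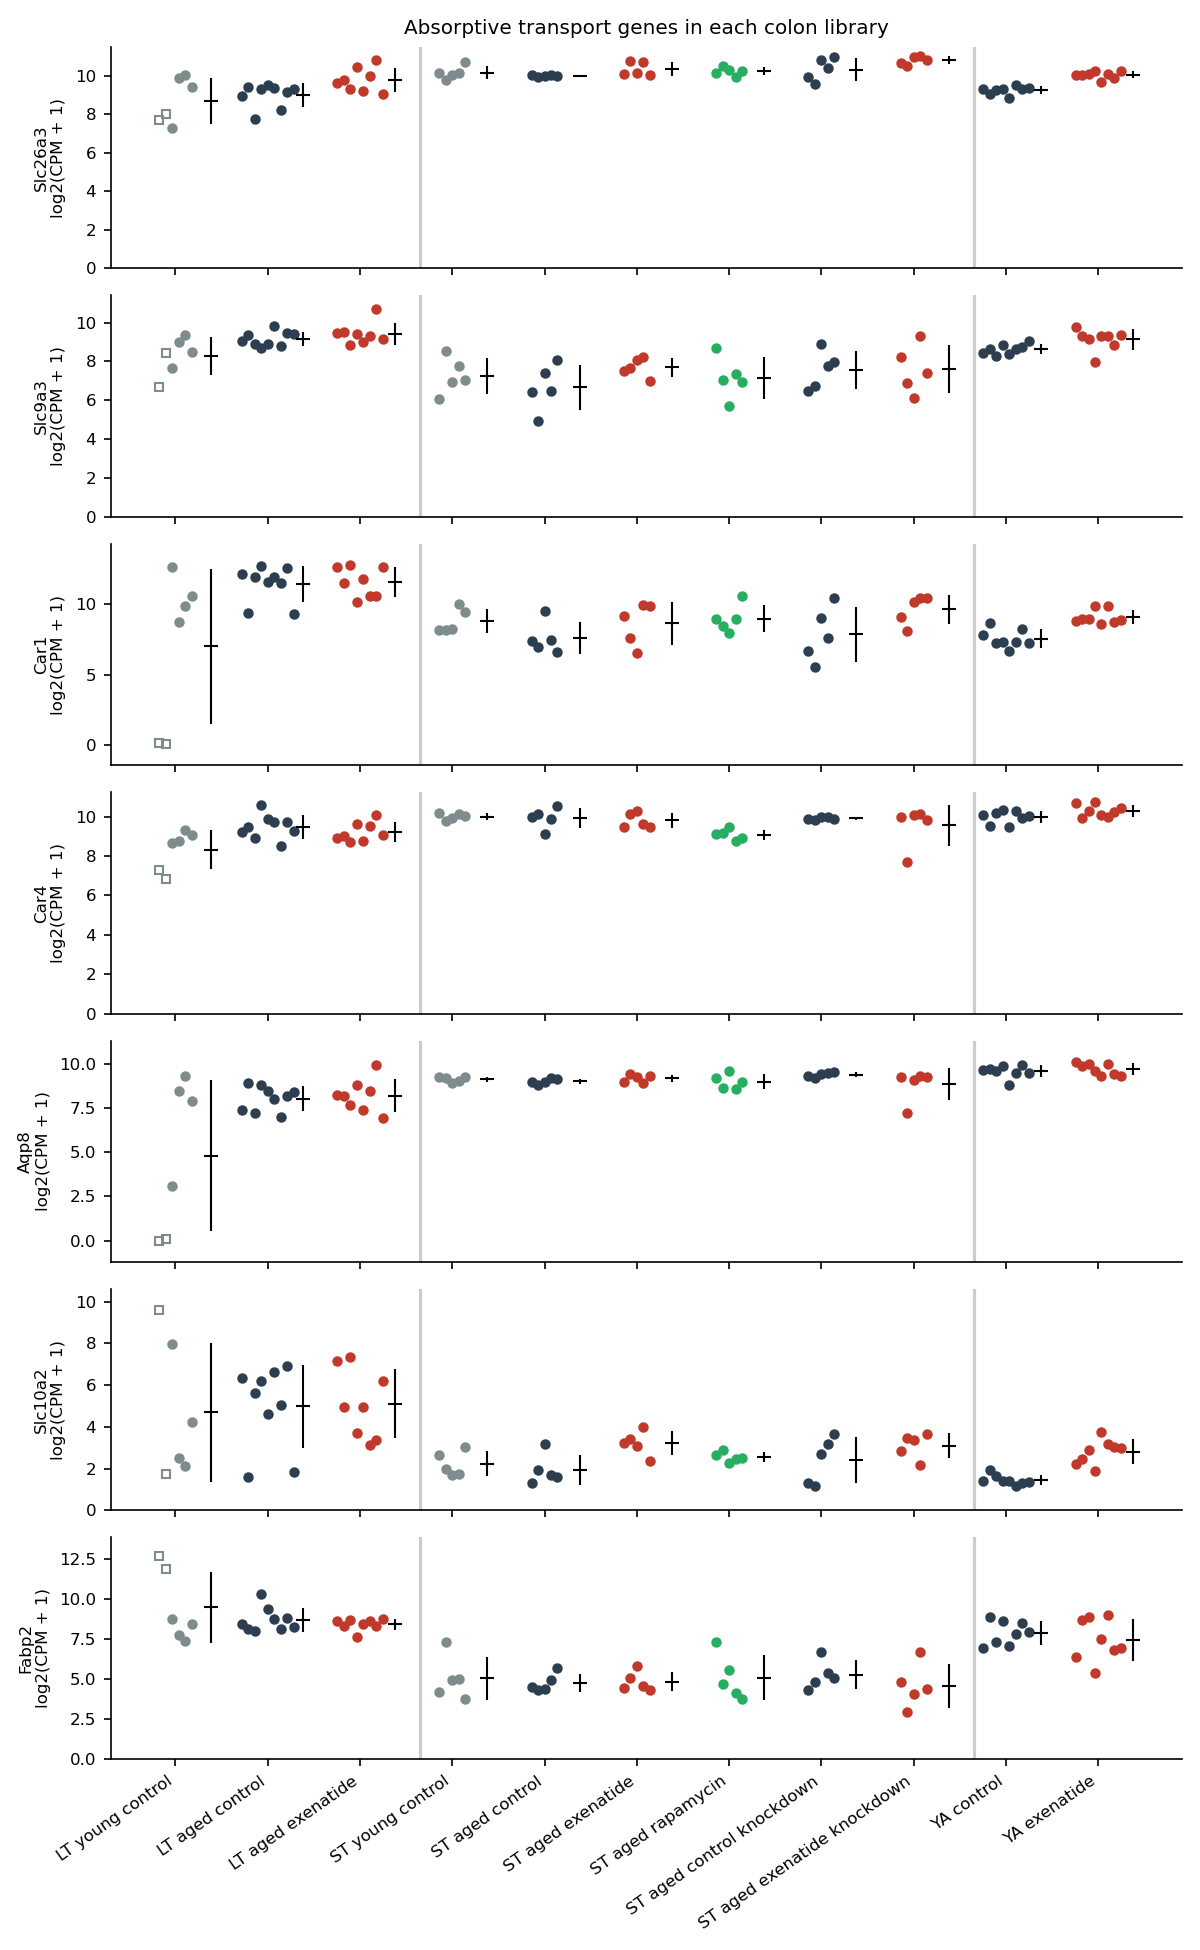
Level of each gene, as log2(CPM + 1), in every colon library; points are animals, grouped by cohort and condition, and the bar beside each group is the mean ± SD. Open squares are animals A52 and A53, which lie near 0 for Car1 and Aqp8 and highest for Fabp2.

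Compared per kilobase of exon, Car1 stood first of the 7 in LT and Car4 first in YA. In aged LT controls the median of Car1 was 3143 CPM per kb, in aged ST controls 135 CPM per kb, and in YA controls 125 CPM per kb. The tables were normalized separately, so these values stand side by side without a test. Slc10a2 was low in ST and YA and varied widely in LT: aged LT controls ran from 2.08 to 121 CPM (median 48.3), aged ST controls from 1.46 to 8.10 CPM and YA controls from 1.27 to 2.87 CPM. Fabp2 had a median of 348 CPM in aged LT controls, 22.1 CPM in aged ST controls and 234 CPM in YA controls. The posterior gene Hoxd13 differed too: it reached 7.71 CPM in LT colon and ran from 18.9 to 285 CPM in ST and from 0.679 to 65.3 CPM in YA. The part of these gaps that follows the position of the sample along the colon was not tested.

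In the YA cohort exenatide was compared with controls. Genes count as called where the adjusted p was under 0.05 by edgeR's quasi-likelihood test with Benjamini-Hochberg adjustment over all genes tested in that tissue and contrast. With exenatide 3 of the 7 genes were called higher and 0 lower, where 4.61% of all genes tested were called in either direction; since the genes were chosen with results in view, nothing is read from that count. Among the ion exchangers, Slc26a3 ran from 464 to 744 CPM (median 636) in controls and from 822 to 1226 CPM (median 1074) with exenatide. Every treated animal was above every control, a pattern that 1.08% of genes showed in this cohort, and the fitted log2 fold change was 0.79 ± 0.10 (SE, n = 8 and 8). Its partner Slc9a3 ran from 311 to 521 CPM (median 398) in controls and from 251 to 873 CPM (median 640) with exenatide. The groups overlapped, the log2 fold change was 0.57 ± 0.18, and the gene was not called. Without treated animal A79 it was called, at 0.68. Of the 7 genes 5 had an unadjusted p under 0.05 by edgeR, and a second method, DESeq2, called 4.

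The cytosolic carbonic anhydrase Car1 was at 99.0 to 414 CPM (median 155) in controls and 379 to 962 CPM (median 488) with exenatide, a log2 fold change of 1.49 ± 0.29. Its groups overlapped only between 379 and 414 CPM. The membrane enzyme Car4 differed less, from 720 to 1291 CPM (median 1069) in controls to 965 to 1736 CPM (median 1228), with a log2 fold change of 0.31 ± 0.15 and no call. Aqp8, the water channel, had medians of 786 and 846 CPM and a log2 fold change of 0.13 ± 0.15. Slc10a2, the bile acid transporter, was called at low level: controls ran from 1.27 to 2.87 CPM (median 1.63) and treated mice from 2.68 to 12.7 CPM (median 6.74). Its log2 fold change was 1.87 ± 0.27, the widest of the 7 in this contrast, and the groups overlapped between 2.68 and 2.87 CPM. Fabp2 ran from 123 to 468 CPM in controls and from 40.4 to 529 CPM with exenatide, with a log2 fold change of -0.10 ± 0.49.

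Leaving out any 1 of the 16 YA libraries kept Slc26a3, Car1 and Slc10a2 called, with log2 fold changes of 0.74 to 0.83, 1.34 to 1.72 and 1.66 to 2.002. With posterior Hox expression as a covariate, a choice made after seeing the data, the fit gave 0.76, 1.69 and 2.01. Markers of another cell type moved in the same contrast. Of 9 goblet cell markers 5 fell and 0 rose, among them the mucin Muc2 (log2 fold change -1.02 ± 0.22, adjusted p = 0.0171), and their summed level was 48362 to 101850 CPM in controls and 12793 to 47863 CPM with exenatide. Of 3 tuft cell markers tested 1 fell, of 6 epithelial markers 1 fell (Krt18), of 6 leukocyte markers 1 fell, and of 7 crypt markers 1 rose. The part of these markers in the values of the 7 genes was not tested.

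**Figure D2:**
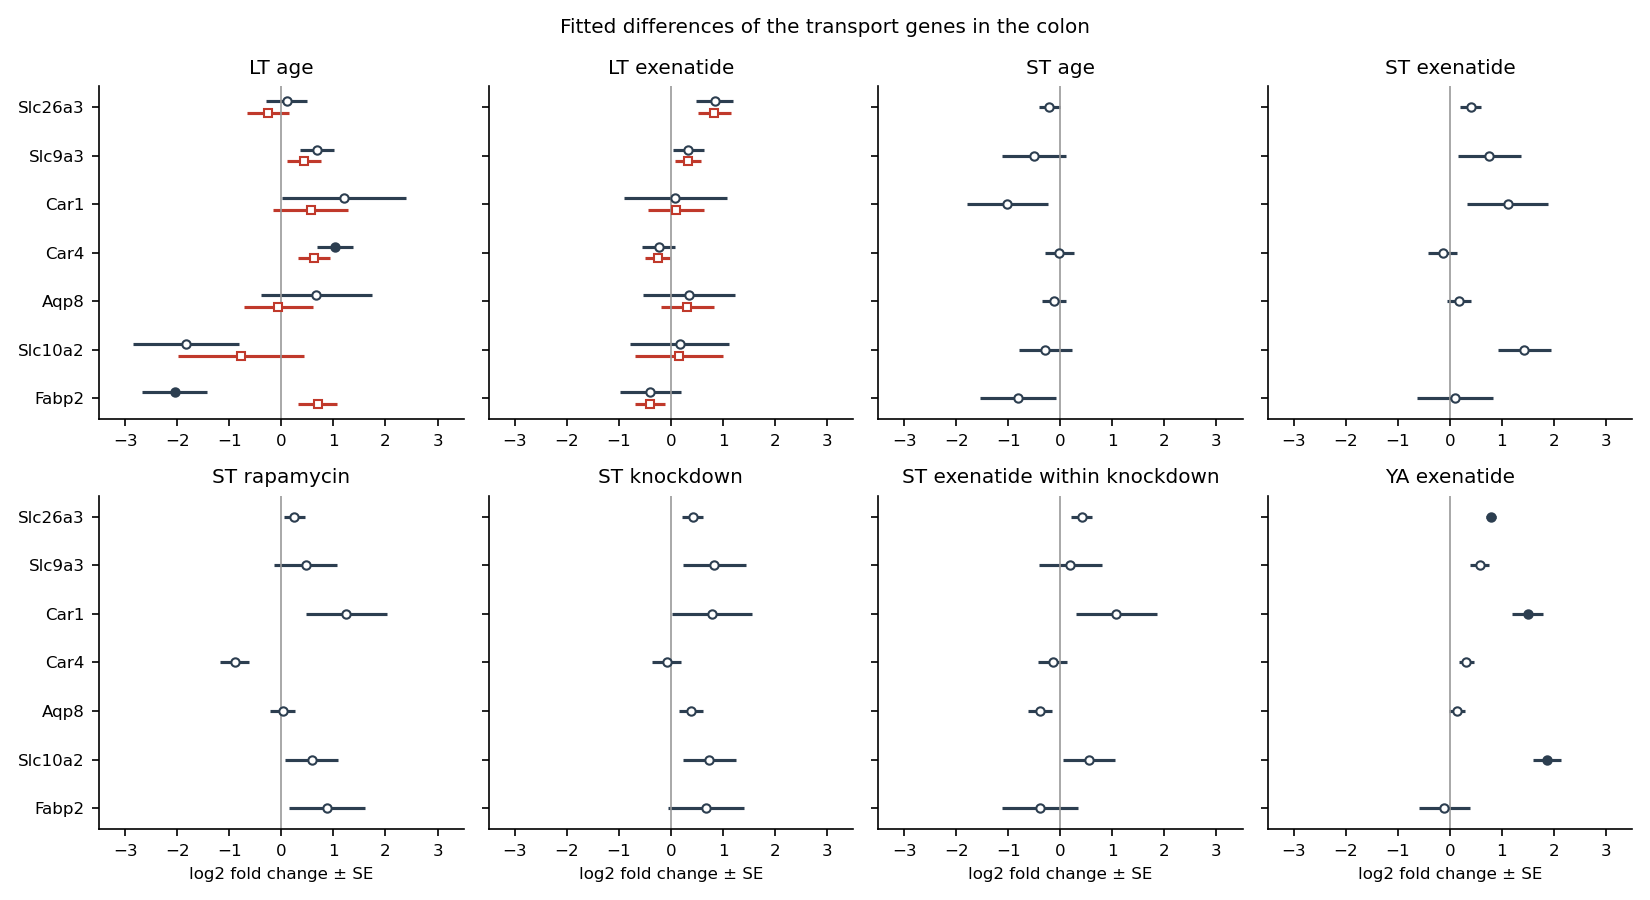
Fitted log2 fold change ± SE of each gene in 8 colon contrasts; filled symbols are genes called at an adjusted p under 0.05 and open symbols are not. Red squares in the LT panels show the fit without A52 and A53, in which Fabp2 moves from -2.05 to 0.69 for age. The YA panel holds 3 called genes.

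Other transport genes were taken from 6 lists of apical ion carriers, basolateral ion carriers, carbonic anhydrases and aquaporins, nutrient and bile acid carriers, brush border genes and regulators. These lists too were chosen with earlier results of these data known. Their counts and medians, here and below, are a description, and nothing is supported with them. In YA 8 of the 85 tested (9.41%) rose with exenatide and 0 fell, where 4.61% of all genes tested were called in either direction. The median log2 fold change over the 85 was 0.17, against 0.01 over all 17258 genes and 0.15 over the 6 epithelial markers. The part of the epithelial share of the tissue in these values was not tested. The basolateral list held 4 of the 8, out of 11 tested. The 3 with the smallest adjusted p were Atp1b1, a subunit of the sodium pump (0.37 ± 0.09, adjusted p = 0.0254), the chloride channel Clcn2 (0.40 ± 0.10, adjusted p = 0.0260) and the potassium-chloride cotransporter Slc12a7 (0.27 ± 0.07, adjusted p = 0.0291). Atp1b1 had medians of 1349.6 CPM in controls and 1751 CPM with exenatide. The pump drives sodium out of the cell on the blood side.

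The remaining 4 came from 4 lists. Myo1a, the brush border myosin, went from a median of 574 to 730.3 CPM (0.36 ± 0.08, adjusted p = 0.0210). Slc6a19, an amino acid transporter, was low, at medians of 1.56 and 2.36 CPM (0.86 ± 0.22, adjusted p = 0.0307). Car9, a membrane carbonic anhydrase, had a log2 fold change of 0.40 ± 0.10 (adjusted p = 0.0372), and Smad4, a mediator of TGF-beta signals, of 0.32 ± 0.08 (adjusted p = 0.0384). In the apical list, with Cftr and the sodium channel subunits, 0 of 11 were called although 10 of 11 fitted values were above 0. These calls were sensitive to single libraries: without 1 control 2 were left (A36, A83 or A87), 3 (A38), 4 (A81) or 5 (A41), without 1 treated mouse 5 were left (A80 or A84), and DESeq2 called 19.

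**Figure D3:**
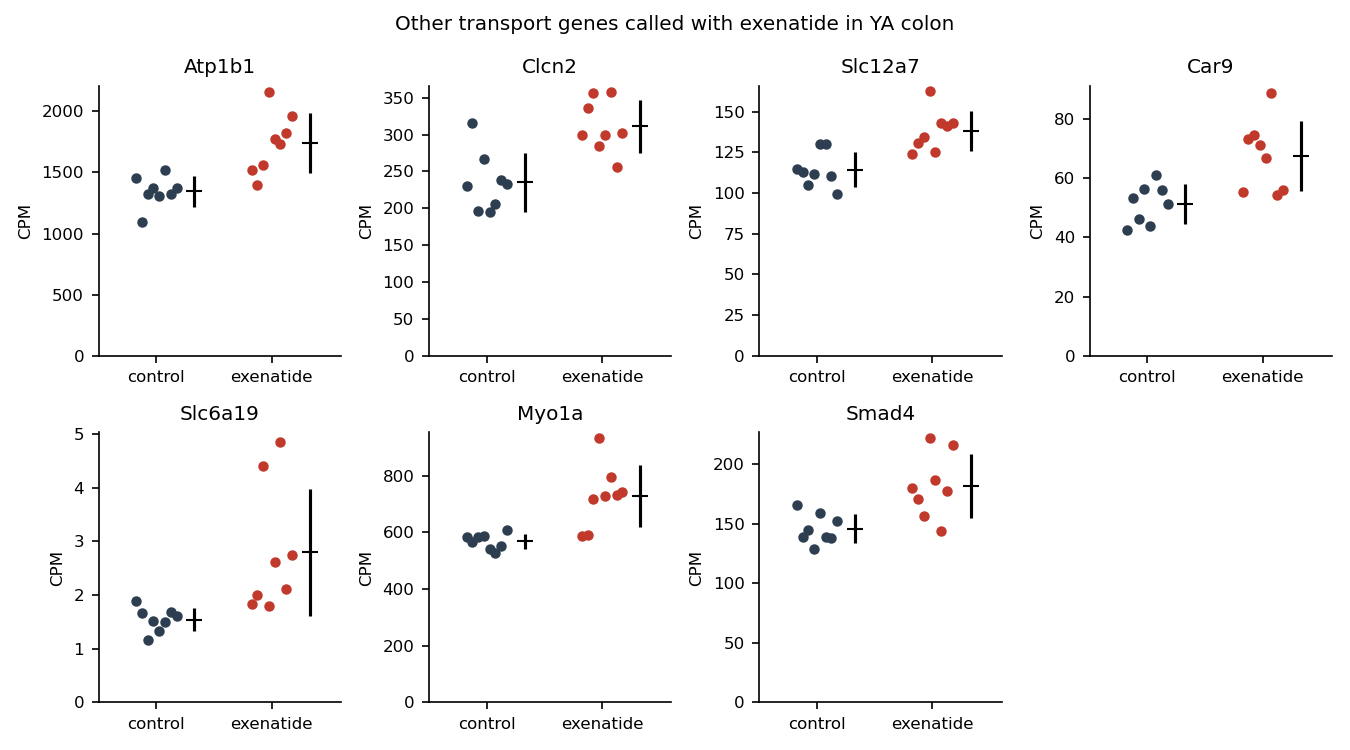
CPM of 7 other transport genes called in YA colon, those named in the text, by animal, for controls and exenatide; the bar beside each group is the mean ± SD of 8 animals. All 7 means are higher with exenatide, and the ranges of the groups overlap for each gene.

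In LT colon exenatide was compared with aged controls. By edgeR 0 of the 7 genes were called, where 12.1% of all genes were called, and 1 of the 7 had an unadjusted p under 0.05; DESeq2 also called 0. Slc26a3 ran from 214 to 745 CPM (median 628) in aged controls and from 523 to 1823 CPM (median 838) with exenatide, and the groups overlapped. Its log2 fold change was 0.84 ± 0.35 (n = 8 and 9). A52 and A53 are in neither group of this contrast, but share its low count filter, scaling and estimates of spread and batch. Without them the Slc26a3 value was 0.83 ± 0.32 and not called, beside 18.5% of all genes called in that fit. With A54 left out as well it was 0.81 ± 0.26 and called, where 18.7% of all genes were. Within RNA-seq batch 2 it was 0.47 and within batch 3 it was 1.32. The other 6 had log2 fold changes between -0.40 (Fabp2) and 0.34 (Aqp8). The Aqp8 value turned to -0.27 without the treated animal B36, and the Fabp2 value ran down to -0.49 and up to -0.08 with 1 library left out.

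Car4 and Fabp2 had opposite signs in the 2 batches: Car4 was at -0.84 in batch 2 and 0.56 in batch 3, and Fabp2 at -0.94 and 0.44. Car1, the most abundant of the 7 per kilobase in this cohort, had medians of 3923 CPM in aged controls and 3233 CPM with exenatide and a log2 fold change of 0.09 ± 0.999 (0.10 ± 0.54 without A52 and A53). Beside these values, 3 of 6 epithelial markers fell with exenatide (5 of 6 without A52 and A53). Their sum was 9147 to 21712 CPM in aged controls and 8095 to 9170.3 CPM with exenatide. Other markers moved too. Without A52 and A53, 4 of 6 smooth muscle markers fell, against 0 of 6 with all libraries. In the same fit 2 of 9 goblet cell, 2 of 5 enteric neural, 1 of 6 enteroendocrine and 1 of 6 leukocyte markers fell. Of 7 crypt markers 2 rose and 1 fell, and of 5 fibroblast markers 1 rose. The part of these markers in the values of the 7 genes was not tested.

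Of the 88 other transport genes tested in LT, 2 rose and 2 fell with exenatide. That is 4.55% of the 88, below the 12.1% of all genes called in this fit. The chloride channel Cftr rose from a median of 118 to 186 CPM (0.68 ± 0.14, adjusted p = 0.00549), and its lowest treated animal, at 159 CPM, was above the highest aged control at 136 CPM, a separation that 2.23% of genes showed. The sulfate and chloride exchanger Slc26a2, of the same family as Slc26a3, rose from 130.0 to 217 CPM (0.97 ± 0.28, adjusted p = 0.0272). The potassium channel Kcnn4 (-0.45 ± 0.11, adjusted p = 0.0133) and the intestinal transcription factor Cdx2 (-0.53 ± 0.13, adjusted p = 0.0125) fell. All 4 were also called without A52 and A53, in a fit that called 16, 11 higher and 5 lower. That is 18.2% of the 88, near the 18.5% of all genes called in that fit. Within batch 2 alone 2 genes were called and within batch 3 alone 0. Among the added genes that rose were Slc6a19 (0.97 ± 0.23, adjusted p = 0.00671), Smad4 (0.44 ± 0.11, adjusted p = 0.00778) and the short-chain fatty acid transporter Slc5a8 (0.49 ± 0.14, adjusted p = 0.0161). The added genes that fell were Guca2b, which encodes the peptide uroguanylin (-0.83 ± 0.27, adjusted p = 0.0355), the microvillus gene Espn (-0.32 ± 0.11, adjusted p = 0.0472) and the transcription factor Cdx1 (-0.35 ± 0.11, adjusted p = 0.0310).

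For age in LT, aged controls were compared with young controls, and here A52 and A53 are 2 of the 6 young animals. With them, 2 of the 7 genes were called, where 14.4% of all genes were. Car4 was called higher in aged mice, from 114 to 647 CPM (median 417) in young and 363 to 1518 CPM (median 701) in aged controls, with a log2 fold change of 1.03 ± 0.34. Fabp2 was called lower at -2.05 ± 0.62. Car4 was at 1.09 within batch 2 and 1.08 within batch 3, and Fabp2 at -1.50 and -2.92. A52 is among the young controls of batch 2 and A53 among those of batch 3. Likeness of the batches is therefore no check free of these libraries. Leaving out 1 library at a time kept Car4 called in 6 of 23 fits and Fabp2 in 18 of 23, the latter losing its call without A52 (-0.88), A53 (-1.52), B16, B19 or B37. Without A52 and A53 neither was called, nor were the rest of the 7, where 3.96% of all genes were called: Car4 was at 0.62 ± 0.31 and Fabp2 turned to 0.69 ± 0.37. The 4 young controls left ran from 164 to 439 CPM of Fabp2 and the aged controls from 263 to 1299 CPM, so the groups overlapped. Beside these values, 3 of 6 epithelial markers were higher in aged mice and 2 of 3 small intestine markers tested were lower with all libraries. Without A52 and A53, 1 of 6 epithelial markers was higher. Of the 3 small intestine markers 1 was higher (Gata4, which is also in the list of regulators) and 0 were lower. Summed posterior Hox expression was at 132 CPM in A55, 177 CPM in A56, 107 CPM in A57 and 17.4 CPM in A54. In the aged controls it ran from 14.5 to 71.3 CPM, and 0 of 5 posterior Hox genes were called for age in that fit. The part of these markers in the values of the 7 genes was not tested.

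Car1 and Slc10a2 varied among young LT controls beyond A52 and A53. Car1 was at 419 CPM in A55, 957 CPM in A56, 1512 CPM in A57 and 6474 CPM in A54, beside the values near 0 in A52 and A53 given above, and its difference between ages was 1.21 ± 1.19 with all libraries and 0.56 ± 0.72 without A52 and A53, and 2.18 ± 0.70 when A54, the young control with the highest Car1, was left out too; none of these was called. Slc10a2 was at 771 CPM in A52, 2.34 CPM in A53, 253 CPM in A54, 4.77 CPM in A55, 3.37 CPM in A56 and 17.8 CPM in A57. The Slc10a2 difference between ages was -1.84 ± 1.02 with all libraries, -0.78 ± 1.22 without A52 and A53, and 3.06 ± 1.09 without A54 too, so its sign rests on these 3 animals; it was called in none of these fits. Without all 3, 0 of the 7 were called for age, where 2.76% of all genes were. Slc26a3, Slc9a3 and Aqp8 were at 0.10 ± 0.39, 0.69 ± 0.33 and 0.67 ± 1.06 with all libraries and at -0.27 ± 0.40, 0.43 ± 0.33 and -0.06 ± 0.67 without A52 and A53.

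Of the other transport genes 40 of 88 (45.5%) were called for age with all libraries, 8 higher and 32 lower, where 14.4% of all genes were. Pdzk1, a scaffold of apical carriers, had the smallest adjusted p (-7.04 ± 1.10, adjusted p = 0.00127). Anpep, a brush border peptidase, reached 10713 CPM in the young group against at most 17.8 CPM in aged controls, but its young median was 21.6 CPM. Without A52 and A53 neither was called: Pdzk1 was at -0.88 ± 0.30 (adjusted p = 0.0965) and Anpep at -0.28 ± 0.19 (adjusted p = 0.388). The count in that fit was 8 (9.09%), where 3.96% of all genes were called. Of these 8, 5 were among the 40. Gata4, a regulator among the 8, is the same gene as the small intestine marker counted above. Espn, an actin bundler of microvilli (0.98 ± 0.14, adjusted p = 0.000520), the transcription factor Gata4 (3.69 ± 0.62, adjusted p = 0.00279), the membrane carbonic anhydrase Car12 (0.65 ± 0.13, adjusted p = 0.0107), the surface cell keratin Krt20 (0.70 ± 0.17, adjusted p = 0.0273), the lipoprotein gene Apob (1.04 ± 0.28, adjusted p = 0.0402) and Car9 (0.47 ± 0.13, adjusted p = 0.0475) rose with age. Dpp4, a peptidase of the brush border (-0.81 ± 0.15, adjusted p = 0.00443), and the fatty acid carrier Cd36 (-1.20 ± 0.30, adjusted p = 0.0315) fell. Young controls A55, A56 and A57 were above every aged control in summed posterior Hox expression, while A54 was within the aged range. The part of position along the colon in these age values was not tested.

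In ST colon, with 5 mice per group, edgeR called 0 of the 7 genes in each of the 6 contrasts. The background was low too: 0.0221% of all genes for age, 0.105% for exenatide, 0.392% for rapamycin, 0% for knockdown, 0.166% for exenatide within the knockdown and 0% for the difference between the exenatide effects. Of the 7, 1 had an unadjusted p under 0.05 for exenatide and 1 for rapamycin, and 0 in the others; DESeq2 called 1 for rapamycin and 0 in the others. The aged ST controls serve in the age, exenatide, rapamycin and knockdown contrasts, so those values are not independent of each other.

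With exenatide, Slc26a3 was at 1105, 1735, 1141, 1684 and 1066 CPM, against 1062, 971, 1006, 1061 and 1016 CPM in aged controls. The lowest treated animal was just above the highest control, a separation that 5.82% of genes showed, and the log2 fold change was 0.40 ± 0.21. The low gene Slc10a2 was at 8.43, 9.78, 7.62, 14.9 and 4.21 CPM with exenatide and at 1.46, 2.84, 8.10, 2.23 and 2.05 CPM in aged controls. Control E29 alone overlapped the treated range, and the log2 fold change was 1.43 ± 0.51. Car1 was at 573, 196, 91.7, 1011 and 943 CPM with exenatide and at 168, 124, 742, 173 and 98.0 CPM in aged controls (1.11 ± 0.78). Without control E29 this Car1 value was 2.02 and that of Slc10a2 was 2.08. Slc9a3 was at 0.76 ± 0.61, Aqp8 at 0.18 ± 0.23, Fabp2 at 0.10 ± 0.73 and Car4 at -0.14 ± 0.28.

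In mice with the hypothalamic knockdown the exenatide values were close in size for Slc26a3 (0.41 ± 0.21) and Car1 (1.08 ± 0.77) and smaller for Slc10a2 (0.55 ± 0.50). Slc26a3 was at 1627, 1475, 2034, 2112 and 1826 CPM with exenatide and knockdown and at 967, 759.8, 1789, 1341 and 1988 CPM with knockdown alone. These groups overlapped. The exenatide effect with knockdown minus that without it was 0.01 ± 0.29 for Slc26a3, -0.03 ± 1.08 for Car1 and -0.88 ± 0.70 for Slc10a2, and it was called for 0 of the 7. Animal E15, given exenatide with knockdown, was at 204 CPM of Car4 and 149 CPM of Aqp8, with the lowest summed epithelial markers of the cohort (5729 CPM). Without it the exenatide value within the knockdown moved from -0.15 to 0.11 for Car4 and from -0.39 to -0.15 for Aqp8. Knockdown alone gave fitted values from -0.08 ± 0.28 (Car4) to 0.83 ± 0.61 (Slc9a3). Aqp8 was at 627, 592, 669.9, 710.3 and 742 CPM with knockdown and at 498, 438, 498, 574 and 553 CPM in aged controls, which did not overlap, as for 0.64% of genes, with a log2 fold change of 0.38 ± 0.23.

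With rapamycin Car4 was at 547, 567, 697, 437 and 474 CPM, against 1001, 1109.8, 552, 949 and 1470.05 CPM in aged controls. Only control E29 lay within the treated range, and the log2 fold change was -0.90 ± 0.28; without animal E15, of another group, it was called at the same size. The other 6 had positive values, from 0.02 ± 0.23 (Aqp8) to 1.25 ± 0.78 (Car1). The Car1 value was 0.60 without treated animal E6 and 2.16 without control E29, and 3 of the 7 genes changed sign in at least 1 fit with a library left out. For age all 7 fitted values were negative, from -0.02 ± 0.28 (Car4) to -1.02 ± 0.77 (Car1), and young and aged controls overlapped for each gene. With 1 library left out, 3 of these 7 values changed sign in at least 1 fit.

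Among 86 other transport genes tested in ST, 2 were called for rapamycin, both lower: Anpep (-0.80 ± 0.18, adjusted p = 0.0370) and Hsd11b2 (-0.71 ± 0.16, adjusted p = 0.0433), the enzyme that keeps cortisol-type steroids off the aldosterone receptor. Neither call was firm: 0 of the 86 were called in 11 of 30 fits with 1 library left out and in the fit limited to the groups compared. Anpep was at 9.59 to 22.7 CPM with rapamycin and at 30.04 to 32.8 CPM in aged controls, and these ranges did not overlap, as for 3.92% of genes. Hsd11b2 had medians of 237 and 385 CPM. In each of the other 5 contrasts edgeR called 0 of the 86, while 6 (age), 9 (exenatide), 1 (knockdown), 15 (exenatide within the knockdown) and 5 (difference between the exenatide effects) had an unadjusted p under 0.05. DESeq2 called 6 for rapamycin, 3 for exenatide within the knockdown and 0 elsewhere.

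Outside the colon the 7 genes were tested in the LT tissues where their mean in young controls was at least 10 CPM, which gave 12 pairs of gene and tissue and 24 tests of age and exenatide. These were not part of the rule that chose the genes. Of the 24, 4 were called. In adipose tissue Car4, known in capillary endothelium, fell with age from 33.7 to 69.7 CPM (median 54.3) in young to 8.78 to 28.6 CPM (median 22.3) in aged controls, and these ranges did not overlap, as for 6.64% of genes there (-1.45 ± 0.22, adjusted p = 4.41e-05). It rose with exenatide to 17.0 to 48.6 CPM (0.73 ± 0.22, adjusted p = 0.0224). These calls stand beside 50.8% of all genes called for age and 18.8% for exenatide in that tissue, where a call was common.

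In liver Slc10a2 rose with age, from a median of 27.5 CPM (16.2 to 52.2) to 43.8 CPM (24.2 to 206), with 4.5% of genes called (1.19 ± 0.35, adjusted p = 0.0465); without the filter on low counts it was not called. With exenatide its value was -0.96 ± 0.34 (adjusted p = 0.207), where 1.04% of genes were called. In kidney Slc9a3, which takes up sodium in the proximal tubule, fell with exenatide from a median of 170.1 to 141 CPM (-0.33 ± 0.08, adjusted p = 0.0134), with 14.2% of genes called. Its aged controls ran from 144 to 199.7 CPM and its treated mice from 110.0 to 155 CPM. For age in kidney, where 7.45% of genes were called, Slc9a3 was at -0.15 ± 0.08 (adjusted p = 0.310).

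The other 20 tests were not called. Slc10a2 in kidney had medians of 77.1 CPM in young controls, 115 CPM in aged controls and 82.8 CPM with exenatide (age 0.45 ± 0.20, adjusted p = 0.206; exenatide -0.47 ± 0.20, adjusted p = 0.118). Aqp8 in liver was at -0.69 ± 0.46 for age and -0.39 ± 0.47 for exenatide, and Fabp2 in liver at -0.25 ± 0.20 and -0.33 ± 0.20. Car4 in lung had a median of 179 CPM in aged controls and 125 CPM with exenatide (-0.70 ± 0.19, adjusted p = 0.0788), where 0.609% of genes were called for exenatide and 6.43% for age. Frontal cortex gave Car4 values of -0.37 ± 0.11 for age (adjusted p = 0.0544; 5.74% of genes called) and 0.05 ± 0.11 for exenatide (adjusted p = 0.919; 0.0961% called). In heart and hippocampus Car4 lay between -0.20 and 0.10, where 17.9% and 0.403% of genes were called for age and 4.01% and 0% for exenatide. Car1 in spleen, where red cell precursors carry it, ran from 2.83 to 106 CPM in aged controls and from 10.5 to 949 CPM with exenatide (2.67 ± 0.79, adjusted p = 0.251; 0.00588% called), and 11.2% of genes were called there for age. DESeq2 called 7 of the 24, adding this Car1 value and those of Car4 in lung for exenatide and in frontal cortex for age.

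**Figure D4:**
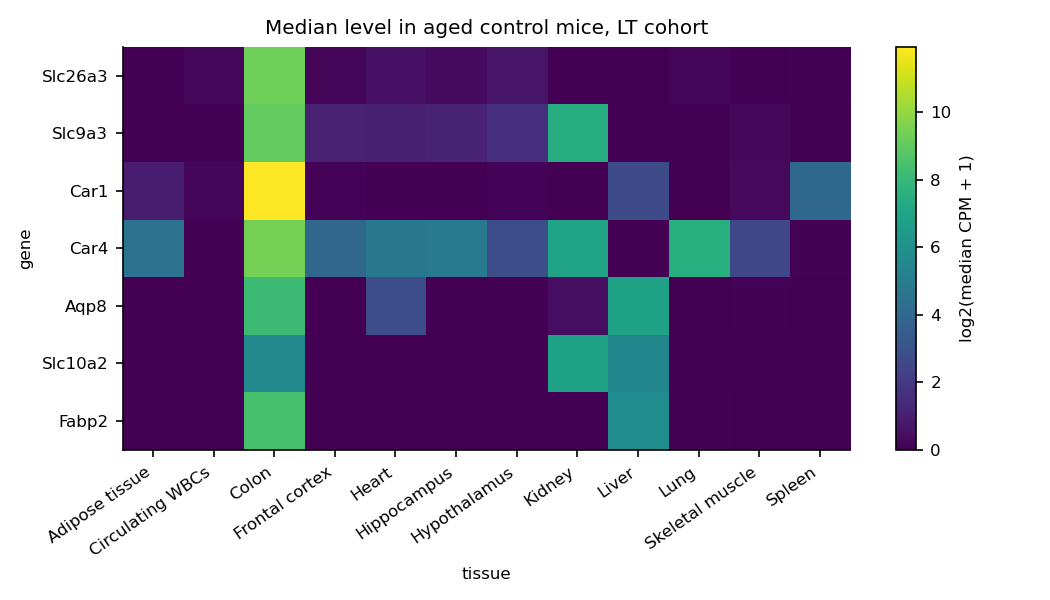
Median level of each gene in aged LT controls, as log2(median CPM + 1), by tissue (columns) and gene (rows). In colon the medians run from 48.3 CPM (Slc10a2) to 3923 CPM (Car1). Car4 is also seen in kidney and lung, Slc9a3 and Slc10a2 in kidney, and Aqp8, Slc10a2 and Fabp2 in liver. The Slc10a2 median is higher in kidney, at 115 CPM, than in colon.

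How the 7 genes varied together was described over the colon libraries after the mean of each condition and batch was taken out of log2 CPM. Animals of a cohort share a table and RNA-seq batches, so these correlations carry no p-value. Over the 67 libraries without A52 and A53, Car4 and Aqp8 went together (Pearson r = 0.707, Spearman rho = 0.597), as did Slc26a3 and Aqp8 (r = 0.682, rho = 0.551), Car1 and Slc10a2 (r = 0.580, rho = 0.513) and Slc9a3 and Fabp2 (r = 0.519, rho = 0.337). Aqp8 and Slc10a2 were inversely related (r = -0.489, rho = -0.361). With A52 and A53 included, Car1 and Aqp8 had r = 0.744 over 69 libraries, and without them r = -0.129. A53 and A54 were the only 2 young controls of batch 3, so A54 adds nothing to correlations without A53. The Car1 and Aqp8 relation therefore rests on A52, A53 and A54.

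Fabp2 was inversely related to 5 posterior Hox genes. Its correlation with their mean level was -0.791 over 67 libraries (rho = -0.747), and within cohorts it was -0.908 over the 30 ST libraries, -0.825 over the 16 YA libraries and -0.426 over 21 LT libraries without A52 and A53. Slc9a3 followed in ST (r = -0.747) but had r = 0.607 in LT. Slc26a3, Car1, Car4, Aqp8 and Slc10a2 lay between -0.220 and 0.151 in ST but farther from 0 elsewhere. In YA Car4 was at r = 0.694, Slc10a2 at -0.573, Car1 at -0.432, Slc26a3 at 0.322 and Aqp8 at -0.317. In LT without A52 and A53 Slc26a3 was at r = 0.655, Aqp8 at 0.497, Car1 at -0.496, Slc10a2 at -0.381 and Car4 at 0.334, so Fabp2 was not the closest there. Likeness to all 16688 genes tested in the 3 cohorts was taken over the 67 libraries without A52 and A53. Closest to Fabp2 were Tmigd1 (r = 0.917), Dpep1 (r = 0.887) and Slc3a1 (r = 0.873). Closest to Slc26a3 were Hif1a (r = 0.739), Nxpe4 (r = 0.730) and Cyp2c69 (r = 0.726), and closest to Car1 were Aldh1a1 (r = 0.802), Ugdh (r = 0.799) and Ugt1a5 (r = 0.781). For Car4 they were Tmem37 (r = 0.827), Gm12992 (r = 0.826) and Ppp1r14d (r = 0.804), and for Aqp8 Gm31423 (r = 0.753), Car4 and Mrps6 (r = 0.698). For Slc10a2 they were Abhd3 (r = 0.685), Adamdec1 (r = 0.653) and Ces2b (r = 0.650), and for Slc9a3 Gm41003 (r = 0.815), Aqp4 (r = 0.740) and Fzd9 (r = 0.731). With A52 and A53 included most of these genes changed. Aqp8 then had Hoxa11os, Hoxa10 and Hoxa9, and Car1 had Fa2h, Hoxb9 and Slc17a9. Gm41003 stayed closest to Slc9a3. Slc3a1, Nxpe4 and Adamdec1 stayed among the 3 for Fabp2, Slc26a3 and Slc10a2.

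**Figure D5:**
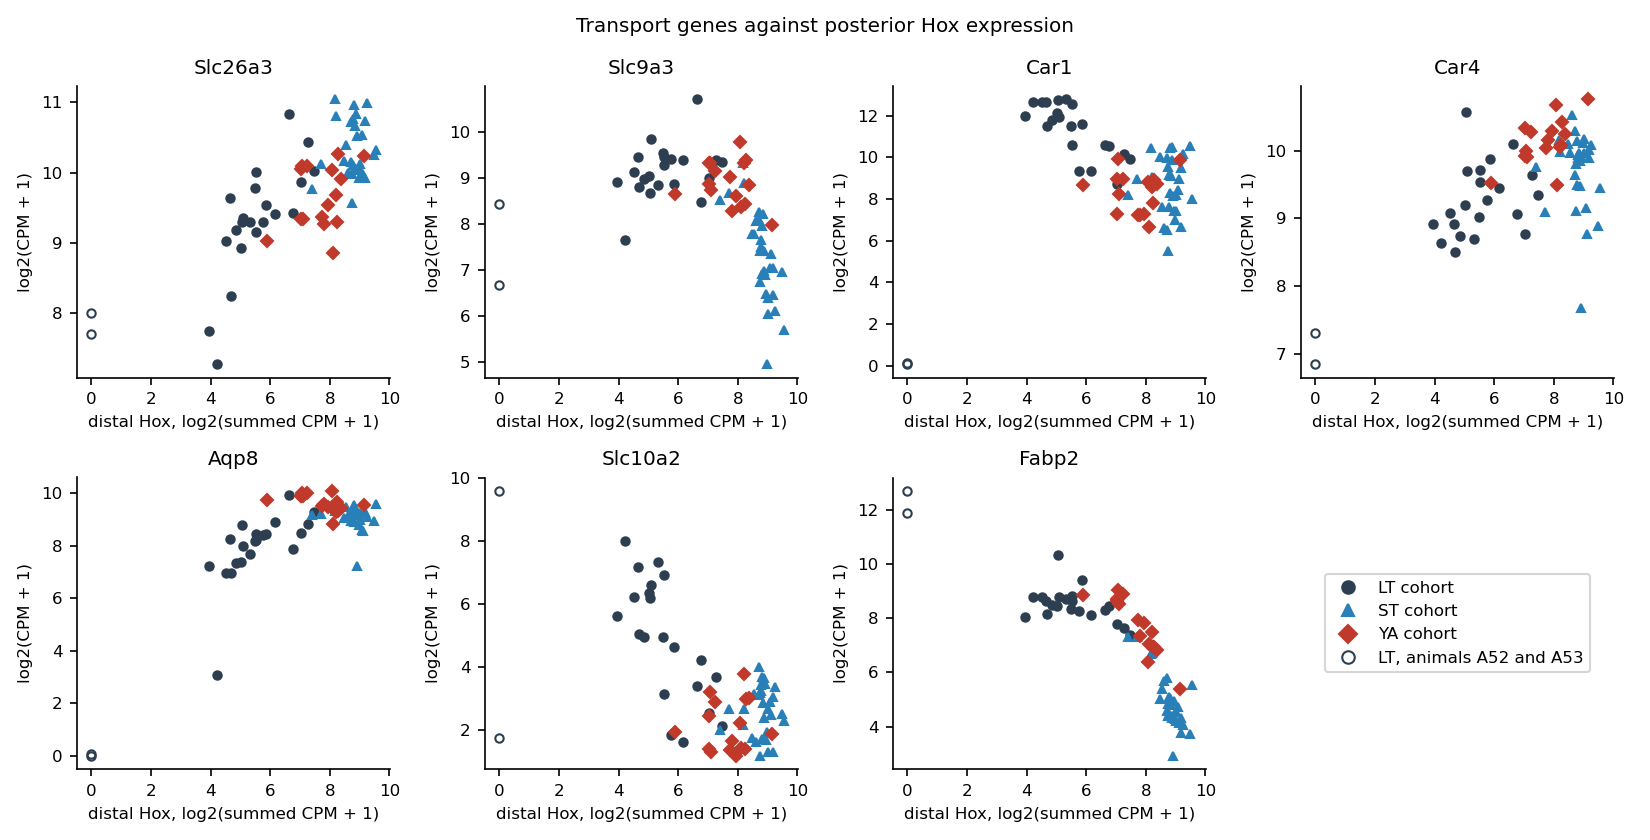
Level of each gene, as log2(CPM + 1), against the summed level of the posterior Hox genes, as log2(summed CPM + 1), with 1 point per colon library and 1 symbol per cohort; open circles are A52 and A53. Fabp2 falls as Hox expression rises in ST and YA.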

How the data were processed

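RNA of 69 mouse colons, 1 library per animal, and of other LT tissues was measured by poly(A) RNA-seq with NEBNext Ultra II libraries, per the labels' protocols. The LT table holds whole-number counts per gene deposited by the authors. The ST and YA tables hold estimated counts deposited by the authors (7.37% and 7.21% of non-zero values were not whole), which were rounded here. FastQC 0.11.9 and build GRCm39 are named in the submitters' processing notes; aligner and counter: not given in the sources used here. A search by tissue tag finds 1 colon library fewer than 69, because B30 is tagged Gastrointestinal_tract and titled colon.

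Each cohort and tissue was fitted over all its conditions with edgeR 4.0.16 (R 4.3.3, limma 3.58.1): TMM scaling, filterByExpr, a batch term in LT, robust quasi-likelihood test, Benjamini-Hochberg adjustment over all genes tested, call at an adjusted p under 0.05. The script was tested on simulated data. CPM values are TMM-scaled. Depth was similar across libraries, and each SE covers the spread between animals. Alternatives were DESeq2 1.42.0, its size factors, no filter, fits limited to the groups compared, no batch term, single batches and each library left out. Figures used Python 3.11.15 and matplotlib 3.10.9. The members and gene lists were chosen with earlier results of these data known. Named genes are the 7, up to 3 called genes per list and contrast with the smallest adjusted p and an average log2 CPM of at least 1, the 3 genes most alike per member, and markers that move with a result. The fourth called gene of the basolateral list in YA is not reported here.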

Additional observations from a re-analysis of the deposited data

Results flagged for a closer look

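Of 77 groups of gene and condition tested for a single value far from the rest, 15 had one. The nominal chance rate is about 1 in 20, but it assumes normally spread values. CPM was used here without logs, and the groups share animals, so nothing is read from that count. In LT young controls these were Car1 in A54 (6474 CPM, next 1512) and Slc10a2 in A52 (771 CPM, next 253). In LT aged controls animal B24 was highest for Car4 (1518 CPM, next 939) and Fabp2 (1299 CPM, next 680.3). With exenatide in LT, B36 was highest for Aqp8 (967 CPM, next 451) and Slc9a3 (1674 CPM, next 740.5). In ST aged controls E29 was highest for Car1 (742 CPM, next 173) and Slc10a2 (8.10 CPM, next 2.84). With rapamycin, Car1 was highest in E6 (1512 CPM, next 496) and Fabp2 in E10 (158 CPM, next 45.98). With exenatide and knockdown, E15 was lowest for Car4 (204 CPM, next 921) and Aqp8 (149 CPM, next 548). Fabp2 was far above the rest in 3 more ST animals: A43 of the young controls (157 CPM, next 31.7), E35 of the knockdown controls (105 CPM, next 41.3) and E33 of the knockdown mice given exenatide (103 CPM, next 26.7).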

How the results depend on the processing

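Without A52 and A53, and without A52, A53 and A54, Fabp2 for age in LT turned from -2.05 to 0.69 and 1.15. For age in LT the count of the 7 genes called, 2 in the report, was 1 with DESeq2, in batch 3 alone, without a batch term, without a filter and without the library tagged Gastrointestinal_tract, and 0 in batch 2 alone, in the limited fit and without the 2 or 3 young libraries; it was 0 to 2 with 1 library left out. The 40 other genes became 6 (batch 2), 18 (batch 3), 17 (limited fit), 8 and 12 (without 2 or 3 young libraries), and 20 to 46 with 1 library left out (24 without A52, 20 without A53). For LT exenatide 0 of the 7 became 1 in the limited fit and without 3 young libraries, and the 4 other genes became 2 (batch 2), 0 (batch 3), 17 (limited fit), 16 and 17 (without 2 or 3), and 3 to 7 with 1 library left out (7 without A53). In ST the limited fit called 1 other gene for age, 1 for exenatide and 0 for rapamycin. DESeq2 called 1 of the 7 and 6 other genes for rapamycin and 3 other genes for exenatide within the knockdown, where leaving out 1 library gave 0 to 1 (1 without E33). With a Hox covariate 6 other genes were called for rapamycin; with 1 library left out it was 0 to 4 (4 without E29; 0 without E10, E13, E19, E22, E23, E28, E30, E32, E34, E7 or E8), and 0 to 1 of the 7 (1 without E15). In YA 3 to 4 of the 7 and 2 to 12 other genes were called with 1 library left out. DESeq2 called 4 of the 7 and 19 other genes in YA. DESeq2 called 7 results outside the colon against 4. The cause of these shifts was not tested. Leaving out the 2 or 3 young libraries and adding the Hox covariate were chosen after seeing the data. No paired analysis was possible because no animal gave colon under 2 conditions. Totals of 22.7 to 31.8 M counts leave Slc10a2, at 1.27 to 2.87 CPM in YA controls, with the fewest counts.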
